A study of Homo sapiens with 8 samples.

Results

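The genes described here make up the human DNA methylation machinery together with CDCA7L, a gene without reads in the NC libraries, in HCCLM3, an established and highly metastatic hepatocellular carcinoma cell line. Of the 10 genes listed, 9 were among the 11818 genes of the deposited table, namely CDCA7L, CDCA7, HELLS, DNMT1, DNMT3A, DNMT3B, UHRF1, TET2 and TET3. TET1 was not analysed here. CDCA7L was chosen by its measured values in these same libraries, no reads in NC and reads in every siRNA library, so its level is given as a description with no test, and the other 8 genes were listed by function. Poly(A) messenger RNA was sequenced in 4 libraries named NC, labelled as wild type, and in 4 libraries named siRNA, from cells in which circPTK2 was knocked down by a transiently transfected siRNA. CircPTK2 is a circular RNA made from the PTK2 gene, and the study asked which signals downstream of it change in these cells. The labels do not say what NC stands for, whether a control siRNA was given to the NC cells, or whether separate cultures gave the libraries of a group. A p-value here therefore measures the spread between libraries alone, and that spread may be technical. Values by library follow the replicate numbers, and the first and the second NC pair are NC replicates 1 and 2 and NC replicates 3 and 4. No label defines these pairs, which follow the measured values. A p-value with a pair left out therefore omits the spread between the pairs and describes the remaining NC pair alone. The table holds genes and not circular RNAs, so the knockdown itself was not checked.

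In mammalian cells a methyl group on the cytosine of a CpG dinucleotide is copied to the new strand at each round of replication. UHRF1 binds the half-methylated CpG and brings in DNMT1, the maintenance methyltransferase, whereas DNMT3A and DNMT3B methylate sites anew. HELLS is a chromatin remodelling ATPase that opens nucleosomal DNA to methylation, and CDCA7 is the zinc-finger protein that recruits and activates it. CDCA7L is the paralogue of CDCA7, known as a binding partner of MYC and of the chromatin protein LEDGF, which PSIP1 encodes. The TET enzymes work in the opposite direction and oxidise methylcytosine. In liver cancer, loss of methylation over much of the genome beside gain at certain promoters is a well-known feature. No DNA methylation was measured in these libraries, and every value below is a level of messenger RNA.

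Because CDCA7L had no reads in one group, the 250 bases before its RefSeq start are shown with every CpG in capitals. The windows of CDCA7, HELLS and UHRF1 are shown because, of the genes that were clearly higher in NC replicates 3 and 4 than in NC replicates 1 and 2, these hold an E2F match, whereas DNMT1, with the same NC pattern, holds none and is not shown. The capitals in them mark a match to an E2F motif, TTTCCCGC or TTTGGCGC, on either strand (GCGGGAAA and GCGCCAAA on the other). E2F factors drive genes of DNA replication. All 4 are RefSeq sequences of build GRCh38.p14, printed 5′ to 3′ on the strand of the gene, at chr7:21945900-21946149 (minus strand) for CDCA7L, chr2:173354622-173354871 (plus strand) for CDCA7, chr10:94545538-94545787 (plus strand) for HELLS and chr19:4909251-4909500 (plus strand) for UHRF1. The HELLS and UHRF1 windows lie before a RefSeq start but inside the gene spans given below, which begin at lower coordinates. The CDCA7L window lies mostly inside its gene span, which ends at 21946084. The last bases of the CDCA7 window lie inside its span, which begins at 173354820.
CDCA7L: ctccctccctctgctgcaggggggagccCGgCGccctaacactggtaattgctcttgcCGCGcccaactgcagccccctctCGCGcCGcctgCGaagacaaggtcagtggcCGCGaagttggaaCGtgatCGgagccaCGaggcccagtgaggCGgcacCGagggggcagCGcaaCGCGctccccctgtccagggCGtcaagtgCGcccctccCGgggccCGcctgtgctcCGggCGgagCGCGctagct
CDCA7: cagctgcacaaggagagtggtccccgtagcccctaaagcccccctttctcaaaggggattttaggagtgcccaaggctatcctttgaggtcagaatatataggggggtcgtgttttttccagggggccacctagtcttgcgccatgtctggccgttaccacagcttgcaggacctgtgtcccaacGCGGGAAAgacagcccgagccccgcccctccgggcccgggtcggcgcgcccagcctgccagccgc
HELLS: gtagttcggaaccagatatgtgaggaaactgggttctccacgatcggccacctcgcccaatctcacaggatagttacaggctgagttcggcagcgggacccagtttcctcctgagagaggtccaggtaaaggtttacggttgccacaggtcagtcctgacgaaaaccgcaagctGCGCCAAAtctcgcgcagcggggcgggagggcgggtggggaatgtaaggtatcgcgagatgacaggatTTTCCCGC
UHRF1: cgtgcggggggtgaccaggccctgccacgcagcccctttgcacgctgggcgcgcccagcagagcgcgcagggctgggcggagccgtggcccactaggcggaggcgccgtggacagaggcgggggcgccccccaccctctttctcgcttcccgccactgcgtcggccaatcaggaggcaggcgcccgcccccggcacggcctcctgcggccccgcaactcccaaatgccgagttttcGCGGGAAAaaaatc
The CDCA7L window held 26 CpG and a GC content of 71.6%. Among 35116 windows of this length, the median was 11 CpG with quartiles of 3 and 23, and 80.4% had fewer than CDCA7L. The windows of CDCA7, HELLS and this one of UHRF1 held 14, 18 and 28 CpG. Each of these windows held TTTCCCGC, which occurred in 1.39% of all windows, and the HELLS window also held TTTGGCGC, which occurred in 0.550%. Because these windows were printed for holding a match, the shares only tell how common each motif is and do not measure enrichment. No E2F match was found in the CDCA7L window, in the other UHRF1 windows or in any window of DNMT1, DNMT3A, DNMT3B, TET2 or TET3. The DNMT1 and DNMT3B windows, like those of HELLS and UHRF1, lie inside the gene spans given below. For these genes the bases before the start of the span were not examined. CACGTG, the E-box read by MYC, reads the same on both strands and was found in 6.34% of all windows but in none of the 4 printed. Among windows that are not printed, it was found in some of DNMT3A, TET2 and TET3. These matches describe the letters of the windows and are not evidence of binding.

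CDCA7L stood apart in being at 0 in every NC library and present in every siRNA library. Its values in the siRNA libraries were 17.2, 18.9, 20.6 and 18.3 on the scale of the table, with a mean of 18.7 ± 1.44 (SD, n = 4). These came from 482, 582, 668 and 505 reads, so the siRNA libraries lay close together and far from 0. Counting 3 reads as the least that could have been seen, each NC library had less than a value between 0.0650 and 0.0807. Against that floor the siRNA mean was at least 251-fold higher, a description of a gene listed for this pattern. No other gene of the table had 0 reads in every NC library with a value of at least 10 in every siRNA library, and no gene had the opposite pattern. In bulk libraries, fewer cells with a transcript and less transcript per cell cannot be told apart.

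The gene (ENSG00000164649.19) spans 21900900 to 21946084 of chromosome 7, minus strand, and its exons cover 4.07 kb. Of these exon bases, 833 (20.4%) overlap DNAH11, a dynein gene on the opposite strand that is not among the listed genes. The use of strand in counting is not given in the sources used here, so reads from the shared bases cannot be assigned to one of the genes. Per kb of exon, CDCA7L averaged 4.60 in the siRNA libraries, where its paralogue CDCA7 averaged 5.36.

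**Figure D1:**
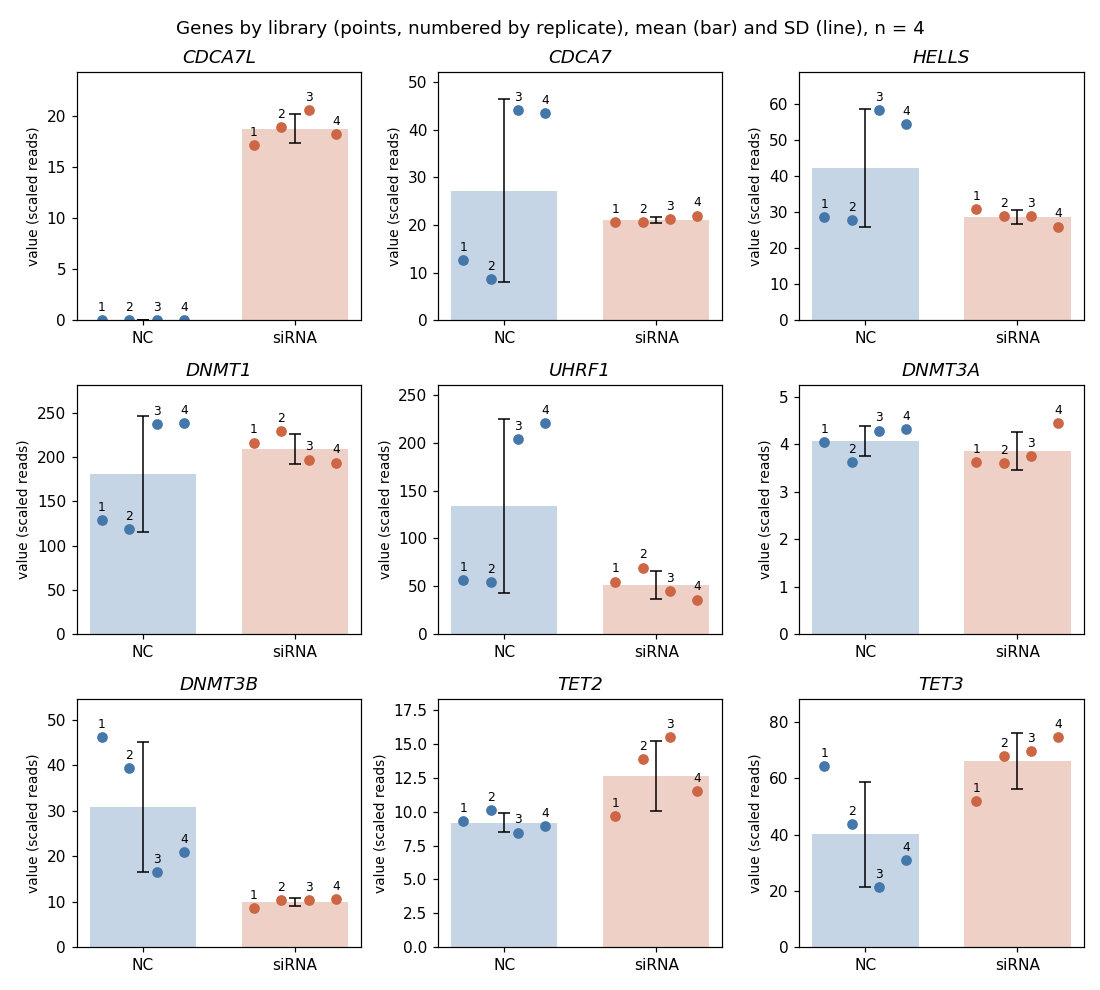
Value of each of the 9 genes in each library, on the scale of the table, as points numbered by replicate, with a bar at the group mean and a line for the SD (n = 4). CDCA7L was at 0 in all NC libraries, and for CDCA7, HELLS, DNMT1 and UHRF1 NC replicates 3 and 4 lay well above NC replicates 1 and 2.

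Among the other 8 genes, 1 passed the threshold of an adjusted p under 0.05 in limma, in the lower direction, and 7 did not. Over all 11812 genes tested, 42.5% passed, 21.7% higher and 20.8% lower in the siRNA libraries, so a single call among 8 genes was below the background share. The median log2 change of the 8 genes was -0.05, against 0.01 over all genes. The groups did not overlap for 1 of the 8 genes, and for 43.3% of all genes. With the first NC pair left out 6 of the 8 genes passed, against 66.1% of all genes, and with the second left out 3 of the 8, against 57.9%. In edgeR on recovered reads 2 of the 8 passed, against 42.8%, and in DESeq2 3 of the 8, against 48.2%. The plot of log2 changes by gene shows the values of limma with their errors.

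DNMT3B, one of the methyltransferases that place new marks, was the gene that fell. It measured 46.3, 39.3, 16.6 and 20.9 in the NC libraries, against 8.62, 10.3, 10.4 and 10.6 in the siRNA libraries. Every siRNA library lay below every NC library, although the NC libraries differed widely among themselves. The NC mean of 30.8 ± 14.3 (SD, n = 4) was 3.08 times the siRNA mean of 9.99 ± 0.918 (SD, n = 4). On the log2(value + 1) scale the change was -1.42 with a standard error of 0.30 (limma adjusted p = 0.00563). Its size depended on which NC libraries were compared: it was -0.84 with the first NC pair left out (limma adjusted p = 0.000375) and -2.0 with the second NC pair left out (limma adjusted p = 1.96e-06). DNMT3B (chromosome 20, 32762385 to 32809356, plus strand) is, like CDCA7 and HELLS, mutated in ICF syndrome, in which satellite DNA loses methylation.

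DNMT3A, its partner enzyme, was low throughout and showed no call. It measured 4.05, 3.63, 4.29 and 4.33 in the NC libraries, against 3.63, 3.61, 3.76 and 4.45 in the siRNA libraries. The groups overlapped over nearly their whole range. The log2 change was -0.06 with a standard error of 0.13 (limma adjusted p = 0.715). Per kb of exon DNMT3A averaged 0.339 in the NC and 0.321 in the siRNA libraries, against 6.65 and 2.16 for DNMT3B, so DNMT3B stayed above DNMT3A in both groups.

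Neither maintenance gene passed over all libraries, and for both the NC pairs lay far apart. DNMT1 measured 129, 119, 238 and 239 in the NC libraries, against 217, 230, 197 and 194 in the siRNA libraries. The siRNA libraries lay between the lower and the higher pair of NC libraries. Its log2 change was 0.28 with a standard error of 0.24 (limma adjusted p = 0.375). The change was -0.19 with the first NC pair left out (limma adjusted p = 0.0677) and 0.75 with the second NC pair left out (limma adjusted p = 7.11e-05), so its direction depended on the NC pair. DNMT1 spans 10133345 to 10231286 of chromosome 19, minus strand, and 83 of its exon bases (0.847%) overlap S1PR2 on the same strand.

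UHRF1, the reader that brings DNMT1 to half-methylated DNA, had the largest SD of the 8 genes in the NC libraries on the scale of the table. It measured 56.1, 54.6, 203.9 and 220.5 in the NC libraries, against 54.7, 69.4, 44.5 and 35.9 in the siRNA libraries. NC replicates 3 and 4 stood far above all other libraries, while NC replicates 1 and 2 lay within the siRNA range. The mean was 134 ± 90.8 (SD, n = 4) in the NC and 51.1 ± 14.4 (SD, n = 4) in the siRNA libraries, a log2 change of -1.11 with a standard error of 0.49 (limma adjusted p = 0.0996). With the first NC pair left out the change was -2.07 (limma adjusted p = 0.000271), and, with the second NC pair left out, -0.15 (limma adjusted p = 0.601). Count tests on recovered reads, planned as alternatives, gave -1.39 with an adjusted p of 0.0481 in edgeR and of 0.00754 in DESeq2, so the call depended on the test. UHRF1 spans 4903080 to 4962154 of chromosome 19, plus strand.

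HELLS and CDCA7, the remodeller and its activator, also split the NC libraries. HELLS measured 28.6, 27.7, 58.3 and 54.2 in the NC libraries, against 30.9, 28.9, 28.9 and 26.0 in the siRNA libraries. The siRNA libraries lay around the lower NC pair, and its log2 change over all libraries was -0.46 with a standard error of 0.25 (limma adjusted p = 0.166). With the first NC pair left out the change was -0.95 (limma adjusted p = 1.06e-05), and, with the second NC pair left out, 0.02 (limma adjusted p = 0.864). HELLS spans 94501434 to 94613905 of chromosome 10, plus strand, and 438 of its exon bases (4.32%) overlap AL138759.1, a transcript on the same strand.

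CDCA7 split the NC libraries around the siRNA level. It measured 12.6, 8.72, 44.2 and 43.5 in the NC libraries, against 20.6, 20.6, 21.2 and 22.0 in the siRNA libraries. The siRNA libraries agreed closely and fell between the NC pairs, above the first pair and below the second. Its log2 change was -0.04 with a standard error of 0.48 (limma adjusted p = 0.958). The change was -1.02 with the first NC pair left out (limma adjusted p = 4.70e-06) and 0.94 with the second NC pair left out (limma adjusted p = 0.000336), each past the threshold and in opposite directions. CDCA7 spans 173354820 to 173368997 of chromosome 2, plus strand.

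The TET genes were measured for TET2 and TET3, and neither passed the threshold. TET3 measured 64.4, 43.6, 21.3 and 30.9 in the NC libraries, against 51.9, 67.7, 69.7 and 74.7 in the siRNA libraries. NC replicate 1 lay within the siRNA range and the other NC libraries below it. The mean was 40.1 ± 18.6 (SD, n = 4) in the NC and 66.0 ± 9.85 (SD, n = 4) in the siRNA libraries, a log2 change of 0.81 with a standard error of 0.30 (limma adjusted p = 0.0566). Without NC replicate 1 the change was 1.07 (limma adjusted p = 0.00930). With the first NC pair left out it was 1.32 (limma adjusted p = 0.000132), and, with the second NC pair left out, 0.30 (limma adjusted p = 0.190). TET3 spans 73986404 to 74108176 of chromosome 2, plus strand.

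TET2, whose loss-of-function mutations are frequent in myeloid blood disorders, measured 9.28, 10.1, 8.45 and 8.91 in the NC libraries. In the siRNA libraries it measured 9.65, 13.9, 15.5 and 11.5, so siRNA replicate 1 lay within the NC range and the others above it. The log2 change was 0.40 with a standard error of 0.16 (limma adjusted p = 0.0644). It passed without siRNA replicate 1 (limma adjusted p = 0.0313), with the first NC pair left out (a change of 0.48, limma adjusted p = 0.0334) and in DESeq2 (adjusted p = 0.0319), but not in edgeR. TET2 spans 105145875 to 105279816 of chromosome 4, plus strand.

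**Figure D2:**
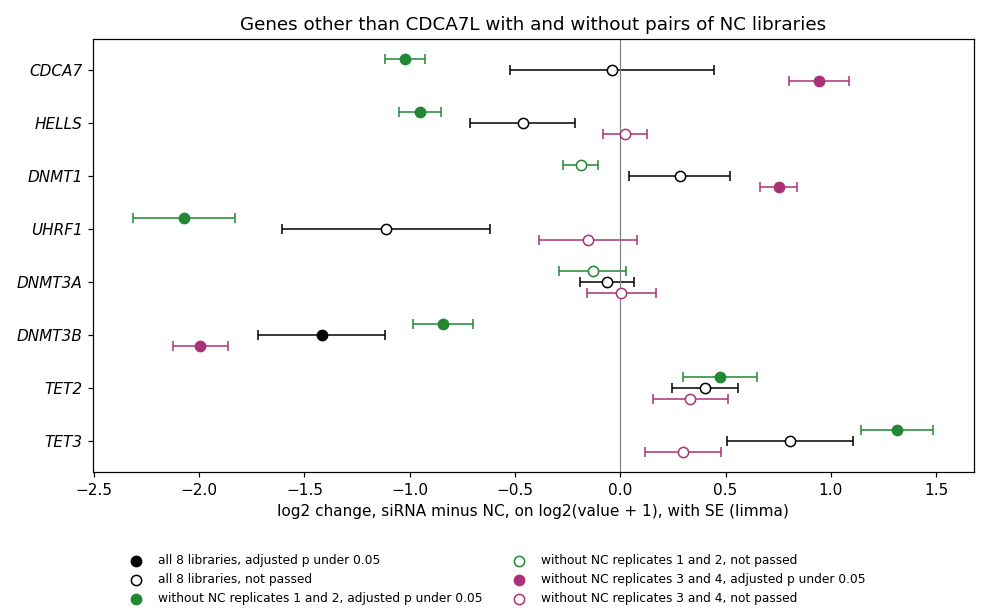
Log2 change (siRNA minus NC, on the log2(value + 1) scale) of the 8 genes tested, with standard errors, over all libraries and with the first or the second NC pair left out. DNMT3B was below 0 in all these fits, whereas CDCA7 moved from -1.02 to 0.94 with the NC pair left out.

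Per kb of exon, the order of the NC means ran from UHRF1 at 26.0 and DNMT1 at 18.5 through CDCA7 at 6.93, DNMT3B at 6.65, HELLS at 4.16 and TET3 at 3.27 to TET2 at 0.557 and DNMT3A at 0.339. In the siRNA libraries DNMT1 at 21.4 led UHRF1 at 9.94, followed by TET3 at 5.38, CDCA7 at 5.36, CDCA7L at 4.60, HELLS at 2.82, DNMT3B at 2.16, TET2 at 0.767 and DNMT3A at 0.321. Neighbours in the NC order whose libraries overlapped were UHRF1 with DNMT1, and each pair from CDCA7 down to TET3. In the siRNA order TET3 overlapped CDCA7, and the other neighbours did not overlap.

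NC replicates 3 and 4 both lay above NC replicates 1 and 2 for CDCA7, HELLS, DNMT1, UHRF1 and DNMT3A, and both below them for DNMT3B, TET2 and TET3. Of all genes tested, 37.6% were in the first class and 33.1% in the second. After each gene was centred on its own mean, the root mean square difference of log2(value + 1) over the 8 libraries was smallest between DNMT3A and TET2, at 0.324, and between DNMT1 and DNMT3A, at 0.357. Among CDCA7, HELLS, DNMT1 and UHRF1 it ran from 0.379 between HELLS and DNMT1 to 0.799 between DNMT1 and UHRF1, against 0.381 between HELLS and DNMT3A. The S-phase list, 20 genes of DNA replication, followed the same NC pairs. All 20 were higher in both libraries of the second NC pair than in both of the first, and their summed level was 1511, 1371, 2992 and 2943 in the NC libraries and 2014, 1966, 1817 and 1741 in the siRNA libraries. Its part in the values of CDCA7, HELLS, DNMT1 and UHRF1 was not tested. Over all libraries 1 of the 20 passed, against 42.5% of all genes: CHAF1A, a subunit of the chromatin assembly factor, with a log2 change of -1.11 (limma adjusted p = 0.00774), which did not pass with the median of each 10 Mb bin of the genome removed from every library (limma adjusted p = 0.0689). With the first NC pair left out, 0 of the 20 were higher and 17 lower in limma, against 34.0% and 32.1% of all genes. With the second NC pair left out, 13 were higher and 1 lower, against 30.2% and 27.7%.

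The genes whose profile over the 8 libraries was nearest to CDCA7L were COL6A3, EGFLAM, RBP4, SLAMF7 and SSX1, at root mean square differences from 0.198 to 0.297. COL6A3, a chain of collagen VI, averaged 2.40 ± 0.363 (SD, n = 4) in the NC and 82.6 ± 4.78 (SD, n = 4) in the siRNA libraries. RBP4, the plasma carrier of retinol, averaged 0.189 ± 0.152 and 23.5 ± 3.67 (SD, n = 4). SSX1, a cancer-testis gene on the X chromosome, averaged 0.972 ± 0.329 and 52.7 ± 4.85 (SD, n = 4). Each of the 5 had reads in at least 1 NC library. EGFLAM, however, averaged 0.0624 ± 0.0931 in the NC and 15.9 ± 1.09 in the siRNA libraries (SD, n = 4). Its NC mean lay below 0.0746, the mean NC floor of 3 reads, so by that floor its NC level cannot be told from that of CDCA7L. Nearest to DNMT3B were FAM219B, PLEKHG2, BPIFB1, DCLK2 and DOCK4, at 0.166 to 0.197. These shared with DNMT3B a level in NC above that in siRNA, such as 116 ± 47.7 against 40.0 ± 1.85 for PLEKHG2 (SD, n = 4). BPIFB1 lies on the same chromosome as DNMT3B, from 33273480 to 33309878. Nearness of profile says nothing of shared control.

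CDCA7L lay among listed genes that were mostly higher in the siRNA libraries. Of the 5 listed genes on each side of it, 5 rose and 1 fell in limma, against 21.7% and 20.8% of all genes, with a median log2 change of 0.65. RAPGEF5, a Rap exchange factor gene and the nearest at 172 kb, averaged 1.34 ± 0.399 in the NC and 4.98 ± 1.45 in the siRNA libraries (SD, n = 4), a log2 change of 1.34 (limma adjusted p = 0.00138). SP4, a transcription factor gene 386 kb away on the other side, changed by 1.09 (limma adjusted p = 0.000925). Further out on that side, TWISTNB changed by 1.04 (limma adjusted p = 0.000151), the histone deacetylase gene HDAC9 by 1.89 (limma adjusted p = 0.0143) and AHR, the dioxin receptor gene, by 1.14 (limma adjusted p = 0.00210). The NC libraries varied widely for HDAC9, which averaged 107 ± 79.4 in the NC and 315 ± 7.78 in the siRNA libraries (SD, n = 4). SNX13 was the gene that fell, by 0.47 on the log2 scale (limma adjusted p = 0.0420), and it did not pass with any siRNA library left out (limma adjusted p from 0.0680 to 0.104) or without NC replicate 3 or 4. It also did not pass with library totals alone (limma adjusted p = 0.0548) or in limma-voom on recovered reads (adjusted p = 0.0513). TOMM7, FAM126A, KLHL7 and NUPL2, 867 to 1236 kb away on the side of RAPGEF5, had changes from 0.03 to 0.27 and did not pass. Each of these neighbours had reads in the NC libraries, so the absence of reads was not shared by them.

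**Figure D3:**
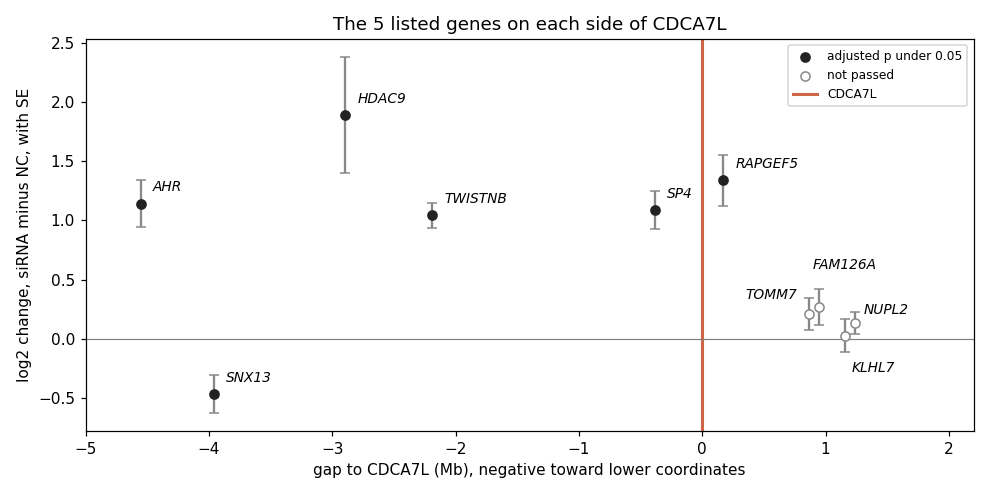
Log2 change (siRNA minus NC, with standard error) of the 5 listed genes on each side of CDCA7L against their gap to it in Mb, with filled points for an adjusted p under 0.05. Of the 10 genes, 9 lay above 0, and RAPGEF5, SP4, TWISTNB, HDAC9 and AHR passed the threshold.

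Within 5 Mb of CDCA7L, 12 of 25 tested genes rose and 3 fell in limma, with a median log2 change of 0.27. Of all genes, 21.7% rose and 20.8% fell, and the counts around the other genes are to be read against the same shares. Around UHRF1, 13 of 175 genes rose and 89 fell, with a median of -0.46, and UHRF1 itself was 0.65 below that median on the log2 scale. Around HELLS the median was -0.34 over 52 genes and around CDCA7 it was -0.26 over 40 genes. Around DNMT3B, 17 of 71 genes rose and 12 fell, near the shares of all genes. The median there was 0.11, against -1.42 for DNMT3B itself. With the median of each 10 Mb bin removed from every library, DNMT3B changed by -1.50 (limma adjusted p = 0.00579). In the same fit UHRF1 was at -0.69 (limma adjusted p = 0.309) in place of -1.11, HELLS at -0.13 (limma adjusted p = 0.678) in place of -0.46, and CDCA7 at 0.25 (limma adjusted p = 0.685) in place of -0.04.

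Of 15 listed partners of maintenance and targeting, 13 were in the table, of which 0 rose, 7 fell and 6 did not pass in limma, against 21.7% and 20.8% of all genes, with a median log2 change of -0.51 against 0.01 over all genes. LIG1, the ligase that joins Okazaki fragments and takes part in bringing UHRF1 to replication sites, measured 39.5, 39.8, 81.4 and 81.5 in the NC libraries, against 14.5, 16.0, 13.8 and 15.1 in the siRNA libraries. All siRNA libraries lay below both NC pairs, and the log2 change was -1.87 with a standard error of 0.26 (limma adjusted p = 0.000677). PCLAF, a PCNA-binding factor, fell by 0.87 (limma adjusted p = 0.000387), DMAP1, a DNMT1-associated protein gene, by 1.04 (limma adjusted p = 0.000797) and SETDB1, a histone methyltransferase gene, by 0.62 (limma adjusted p = 0.00092), each on the log2 scale. SETDB1 did not pass with 10 Mb bin medians removed, where it was at -0.021 (limma adjusted p = 0.875).

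Of 15 listed readers of methylated or unmethylated CpG, 14 were in the table, of which 2 rose, 4 fell and 8 did not pass in limma, against 21.7% and 20.8% of all genes, with a median log2 change of -0.17. The share called was thus near that of all genes. MBD3, a NuRD subunit gene, fell by 0.69 on the log2 scale (limma adjusted p = 0.00310), from 205 ± 35.8 to 126 ± 7.38 (SD, n = 4). CXXC1, which binds unmethylated CpG, MBD4, a glycosylase gene, and MBD1 fell by 0.65, 0.65 and 0.62 (limma adjusted p = 0.00510, 0.00578 and 0.00558). ZBTB33 and KDM2A, named after their values were seen, rose by 0.33 each (limma adjusted p = 0.0241 and 0.0398). MBD3 did not pass with bin medians removed, at -0.26 (limma adjusted p = 0.173).

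A list around the removal of oxidised methylcytosine also takes in base excision more widely, the TET cofactor and other linked genes. All 19 of its genes were in the table. Of these, 1 rose, 7 fell and 11 did not pass in limma, against 21.7% and 20.8% of all genes, with a median log2 change of -0.07. The share called was again near the 42.5% of all genes, and GADD45G, 1 of the 7, met the filter through the NC libraries alone. UNG, the uracil glycosylase, was the one that rose, from 44.0 ± 15.9 to 93.8 ± 6.16 (SD, n = 4), a log2 change of 1.15 (limma adjusted p = 0.00493). IDH2, the mitochondrial enzyme that makes 2-oxoglutarate, fell from 62.4 ± 17.6 to 17.9 ± 4.12 (SD, n = 4), by 1.73 on the log2 scale (limma adjusted p = 0.000647). D2HGDH, which clears the TET inhibitor 2-hydroxyglutarate, fell by 0.82 (limma adjusted p = 0.00396), and NEIL1, a glycosylase gene, by 1.08 (limma adjusted p = 0.00483). With bin medians removed D2HGDH was at -0.22 and did not pass (limma adjusted p = 0.193).

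The S-adenosylmethionine cycle supplies the methyl donor. Of 12 listed, 8 were in the table, of which 1 rose, 2 fell and 5 did not pass in limma, against 21.7% and 20.8% of all genes, with a median log2 change of 0.09. AHCY, which removes the product inhibitor of methyltransferases, rose from 302 ± 37.7 to 402 ± 13.8 (SD, n = 4), a log2 change of 0.42 (limma adjusted p = 0.0119), but did not pass with library totals alone (limma adjusted p = 0.0582). MAT2A, the enzyme that makes S-adenosylmethionine outside normal liver, fell by 0.53 on the log2 scale (limma adjusted p = 0.0123).

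Among partners of CDCA7L and its reported target, 0 of 7 passed in limma, against 42.5% of all genes. The log2 change was -0.37 for PSIP1 (limma adjusted p = 0.0579), 0.57 for MAX, the dimer partner of MYC (limma adjusted p = 0.0602) and -0.82 for HDGFL2, a relative of LEDGF (limma adjusted p = 0.0776). MYC measured 497, 548, 133 and 151 in the NC libraries, against 659, 645, 618 and 606 in the siRNA libraries. All siRNA libraries were above all NC libraries, the second NC pair lay far below the first, and the log2 change of 1.21 did not pass over all libraries (limma adjusted p = 0.0587). With the first NC pair left out it was 2.15 (limma adjusted p = 8.02e-09), and, with the second left out, 0.27 (limma adjusted p = 0.00981). PSIP1, MAX and HDGFL2 also passed with the first NC pair left out (limma adjusted p = 0.00400, 6.51e-06 and 7.09e-07). In that fit 6 of the 7 genes passed, against 66.1% of all genes. With the second NC pair left out MYC alone of the 7 passed, against 57.9% of all genes. MAOA, the gene whose promoter CDCA7L is known to repress, had a log2 change of -0.02 (limma adjusted p = 0.961).

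Of 16 germline genes known to be silenced by promoter methylation in somatic cells, 3 were in the table, and the other 13 were not analysed here. SOHLH2, a germ cell transcription factor gene, measured 14.9, 15.5, 15.2 and 15.3 in the NC libraries, against 43.2, 42.0, 41.6 and 41.1 in the siRNA libraries. The groups were tight and far apart, with a log2 change of 1.41 and a standard error of 0.09 (limma adjusted p = 1.37e-05). HORMAD1, a meiotic chromosome gene, went the other way: it was low in every NC library, from 1.26 to 1.81, and had no reads in any siRNA library. It met the filter on low values through the NC libraries alone, so no test is given. DDX43, a helicase gene, did not pass (0.40, limma adjusted p = 0.266).

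Over all these lists without the 9 genes described first, 5 of 84 genes rose and 22 fell in limma, or 32.1% called against 42.5% of all genes. The 84 genes include the S-phase and germline lists, and the 22 include HORMAD1 and GADD45G, which met the filter through the NC libraries alone.

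**Figure D4:**
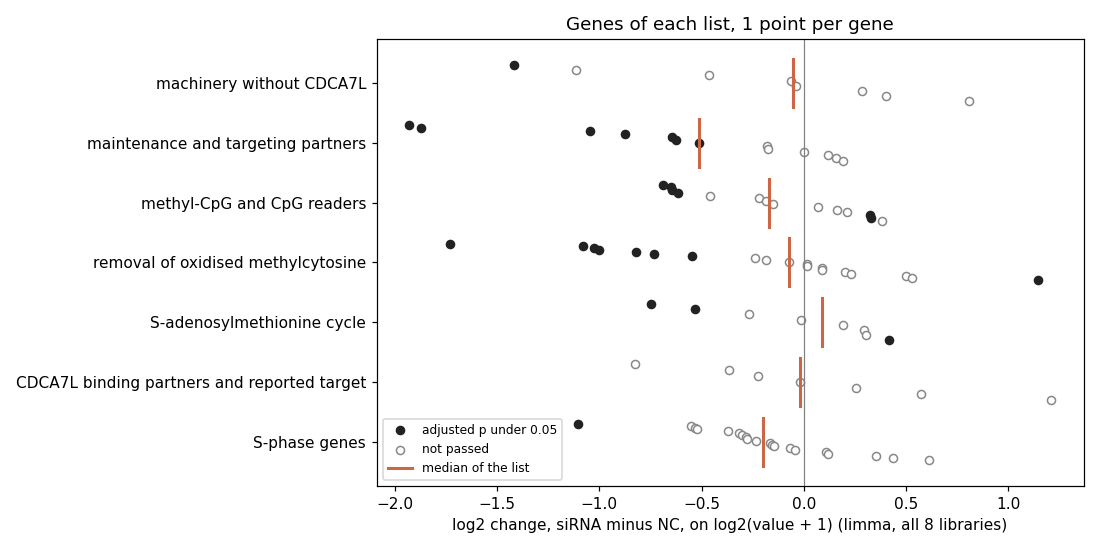
Log2 change (siRNA minus NC) of each gene of the machinery, its partner and pathway lists and the S-phase list, without the germline genes, with filled points for an adjusted p under 0.05 and a line at each list's median. The maintenance and targeting partners lay furthest below 0, with a median of -0.51.

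Markers of the labelled cell type were mixed. Of 13 hepatocyte and epithelial markers 10 were in the table. Of these, 3 rose, 5 fell and 2 did not pass in limma, against 21.7% and 20.8% of all genes. SERPINA1 among the 3, and APOB and FGB among the 5, met the filter through the libraries of 1 group alone. KRT18, an epithelial keratin, ranged from 824 to 1167 in the NC and from 1034 to 1122 in the siRNA libraries, whereas ALB, the albumin gene, was at 7.80 to 10.6 and 26.8 to 38.9. KRT8, also a keratin, fell from 3101 ± 1271 to 1517 ± 35.2 (SD, n = 4), a log2 change of -0.93 (limma adjusted p = 0.0207). FGA, a fibrinogen chain gene, averaged 29.9 ± 12.1 in the NC and 1.06 ± 0.536 in the siRNA libraries (SD, n = 4). FGB, another chain of fibrinogen, averaged 23.7 ± 12.3 and 0.578 ± 0.0700 (SD, n = 4). Of 11 markers of other cell types only CD68 and PECAM1 were in the table, with a summed level of 63.7 to 104 in the NC and 81.3 to 143 in the siRNA libraries. CD68, a macrophage marker, averaged 73.1 ± 18.7 and 103 ± 30.9 (SD, n = 4) and did not pass. PECAM1, an endothelial marker, fell from 13 ± 5.11 to 3.96 ± 0.735 (SD, n = 4), a log2 change of -1.43 (limma adjusted p = 0.00248).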

How the data were processed

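The deposited table gives, per gene symbol and library, a signal: reads that the authors had scaled by library. The submitters' processing notes name HISAT2, HTSeq 0.12.4 and build hg38, and further Trimmomatic, FastQC, edgeR and DESeq2, with roles and settings not given in the sources used here. All values of a library were multiples of its value for 1 read within 0.02, so 100% were recovered as whole reads, although the lowest value of 4 libraries corresponded to 2 reads. Recovered reads came to 37087203 to 43512175 in the NC and 28077305 to 32532669 in the siRNA libraries. Every gene was above 1 in at least 3 libraries, so low genes had been removed before deposit.

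The test was limma 3.58.1 (R 4.3.3, trend and robust) on log2(value + 1), two-sided, with group as the only term, for genes that reached 1 in 4 libraries or more, with Benjamini-Hochberg adjustment over all 11812 genes. The scale understates changes of low genes. Fold values are ratios of means. edgeR 4.0.16, DESeq2 1.42.0 and limma-voom on recovered reads, other pseudocounts, filters and scalings, a replicate block, bins by position and fits without libraries or NC pairs were alternatives. The procedure was also tested on simulated data. Positions and exon lengths came from the reference annotation on GRCh38, matched by symbol for 11806 of 11818 symbols. Promoter windows came from RefSeq, with all 10 listed genes matched to 21 windows.

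The genes and lists were chosen with earlier results of these data known. Named are all listed genes, up to 4 genes with the smallest p per list, the 5 neighbours on each side of CDCA7L, the 5 nearest profiles, and genes without reads in one group at 10 or more in the other, apart from exceptions stated. The values of 1 gene that this rule takes are not reported here. Floors of 3 reads cover counting error only.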

Additional observations from a re-analysis of the deposited data

Results flagged for a closer look

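The value of DNMT3B in siRNA replicate 1, 8.62, lay apart from the other siRNA libraries, at 10.3, 10.4 and 10.6. Its gap to the nearest of them took 0.876 of the range of the group, above the critical value of Dixon's test for 4 samples. Of 111 groups of 4 libraries examined over 56 genes, this was the 1 that stood out, where chance gives about 1 in 20. Without siRNA replicate 1, DNMT3B still passed in limma. Its adjusted p lay between 0.0167 and 0.0213 when each siRNA library was left out in turn.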

How the results depend on the processing

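DNMT3B fell past the threshold under every alternative run, including the replicate block (a log2 change of -1.42, limma adjusted p = 0.0154). Of the 8 genes tested, 1 was called over all libraries, but 6 without NC pair 1 and 2 and 3 without NC pair 3 and 4. Of the same 8 genes, 3 were called in DESeq2, 2 in edgeR and from 1 to 3 with 1 library left out. Of all genes, the shares called were 42.5% over all libraries, 66.1% and 57.9% without these pairs, 48.2% in DESeq2 and 42.8% in edgeR. With 1 library left out, 3699 to 5459 genes were called of 11653 to 11707 tested. The 3 calls without NC replicate 1 were DNMT3B, UHRF1 and TET3. UHRF1 also passed without NC replicate 2, and TET2 without siRNA replicate 1. Over all genes, 5015 were called, 7672 without NC pair 1 and 2 and 3034 at an adjusted p under 0.01. Of the 84 other listed genes, S-phase and germline genes included, 27 were called, 62 without NC pair 1 and 2 and 55 without NC pair 3 and 4, against 42.5%, 66.1% and 57.9% of all genes in the same fits. Reversed changes on the log2 scale, whose cause was not tested, were these. CDCA7 reached 0.25 with bin medians removed, from -0.45 to 0.29 with 1 library left out (0.29 without NC replicate 3, 0.28 without NC replicate 4) and 0.94 without NC pair 3 and 4. HELLS reached 0.023, DNMT3A 0.00447 and DDX43 -0.12 without NC pair 3 and 4. DNMT1 reached -0.19 and the S-phase gene MCM6 -0.18 without NC pair 1 and 2. With bin medians removed TOMM7 was at -0.043, KLHL7 at -0.22 and NUPL2 at -0.12. KLHL7 was also at -0.010 with library totals alone, at -0.056 without NC pair 1 and 2 and from -0.063 to 0.083 with 1 library left out. Of the values of single genes under alternatives, 1117 stayed the same, 44 newly passed, 22 no longer passed and 17 reversed. Same means direction and side of the threshold or, for CDCA7L, which has no test, a shift within its siRNA SD on the log2 scale. The log2 change of CDCA7L moved beyond that in 6 more values, which ran from 2.25 with a pseudocount of 5 to 12.4 in edgeR.

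With 4 libraries per group, deviations from the group means could not show whether replicate numbers pair the libraries, and the labels do not say. Deviations of same-numbered libraries correlated at -0.068, 0.146, -0.066 and 0.161. NC replicates 2 and 4 correlated best with their own number, and NC replicates 1 and 3 did not. With the replicate block 4546 genes were called. CDCA7L has no value with an siRNA library left out, since it then falls under the filter. DNMT3A and TET2 rest on low values, and TET1 was not analysed here. For CDCA7 and DNMT1 the direction of the change depends on which NC pair is compared, and for HELLS, UHRF1, DNMT3B and TET3 its size does. The labels give no reason for the pairs.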
